A study of Mus musculus with 15 samples.

Results

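Carnosine given by the nose was set against no carnosine in the midbrain of wild-type mice, across all genes that RNA sequencing measured there. The 6 libraries were chosen by their labels: 3 of wild-type mice treated intranasally (WT intranasal) and 3 of wild-type controls (WT control), of 15 libraries in all. The table held 24454 gene rows, of which 15818 had enough counts to be tested, and every fold change below is WT intranasal over WT control unless said otherwise. Wild-type mice were BDF1, a hybrid laboratory mouse without a transgene; they were 2 months old when treatment began and treatment lasted 2 months, with a dose of 2 mg carnosine in the treated group. The labels call the other wild-type group control and do not say whether it was given a vehicle by the nose. The 9 remaining libraries came from Thy1-aSyn mice (TG), which carry an alpha-synuclein transgene driven by the Thy1 promoter and therefore made mainly in neurons. They formed 3 groups of 3, namely TG control, TG treated intranasally with 2 mg, and TG that drank water with 10 mM carnosine, and they enter here through the filter, the scaling and the spread, which all 15 libraries share, and through 1 comparison of genotypes at the end. The labels do not say that the libraries of a group came from separate mice, or whether mice were pooled, so p-values measure the spread between these libraries only.

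Carnosine is a dipeptide of beta-alanine and histidine that is abundant in muscle and in olfactory neurons. It buffers acid, binds copper and zinc, and reacts with carbonyl compounds such as methylglyoxal that otherwise modify proteins. The midbrain holds the dopamine neurons of the substantia nigra and ventral tegmental area, and its surface is covered by the meninges, layers of fibroblasts and vessels that make collagen, retinoic acid and bone morphogenetic proteins.

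The 3 WT control libraries held 13202199 to 17759834 counts and the 3 WT intranasal libraries 25676560 to 60542423, so depth differed between the groups in every library. Levels are given as CPM, counts scaled to a common library size after TMM normalization (trimmed mean of M-values). The midbrain label was checked with 8 dopamine neuron markers. All 8 were tested, and their summed level was 57.6 to 105 CPM in WT control and 64.3 to 150.2 CPM in WT intranasal. Th, the rate-limiting enzyme of dopamine synthesis, was measured at 11.5, 19.1 and 7.38 CPM in WT control 1, 2 and 3 and at 3.91, 19.4 and 20.6 CPM in the treated libraries 1, 2 and 3. The transcription factors Foxa2 and Pitx3 were at 0 in WT control 3 and WT intranasal 1, respectively. Markers of other regions were also present, some at higher sums, and differed between libraries. They are given with the results on regions.

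In WT intranasal 51 genes rose (0.322% of the genes tested) and 108 fell (0.683%), by edgeR's quasi-likelihood test at an adjusted p under 0.05, which is 1.01% of genes in either direction. Those that rose, with a median log2 fold change of 1.35 and a range of 0.68 to 7.82, included 8 of 34 tested genes of meningeal fibroblasts and 2 of 18 of endothelial coagulation and adhesion. Those that fell, with a median of -1.11 and a range of -0.64 to -5.00, included 11 of 79 genes of the respiratory chain and 7 of 78 of the mitochondrial ribosome. In all 51 every WT intranasal library lay above every WT control library, as in 13.2% of all genes tested, and in all 108 every WT intranasal library lay below, as in 13.4%. Before adjustment 3796 genes (24%) had a p under 0.05.

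The adjusted p-values lay close to the threshold, at 0.0467 to 0.0494, and 146 of the 159 genes shared the lowest value. No gene was called when WT control 1, WT intranasal 2 or WT intranasal 3 was left out, or with upper-quartile scaling, though 2097 to 3818 genes had an unadjusted p under 0.05 in edgeR there, while all 159 kept their direction in each alternative that tested them. A fit of the 6 wild-type libraries alone called 2 genes, Stab2 and Capn11, both higher. In 43 of the 51 genes that rose, WT intranasal 1 was the lowest WT intranasal library. Among the 108 that fell, WT intranasal 1 was the highest of its group in 101, and WT control 1 the highest of its group in 106.

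**Figure D1:**
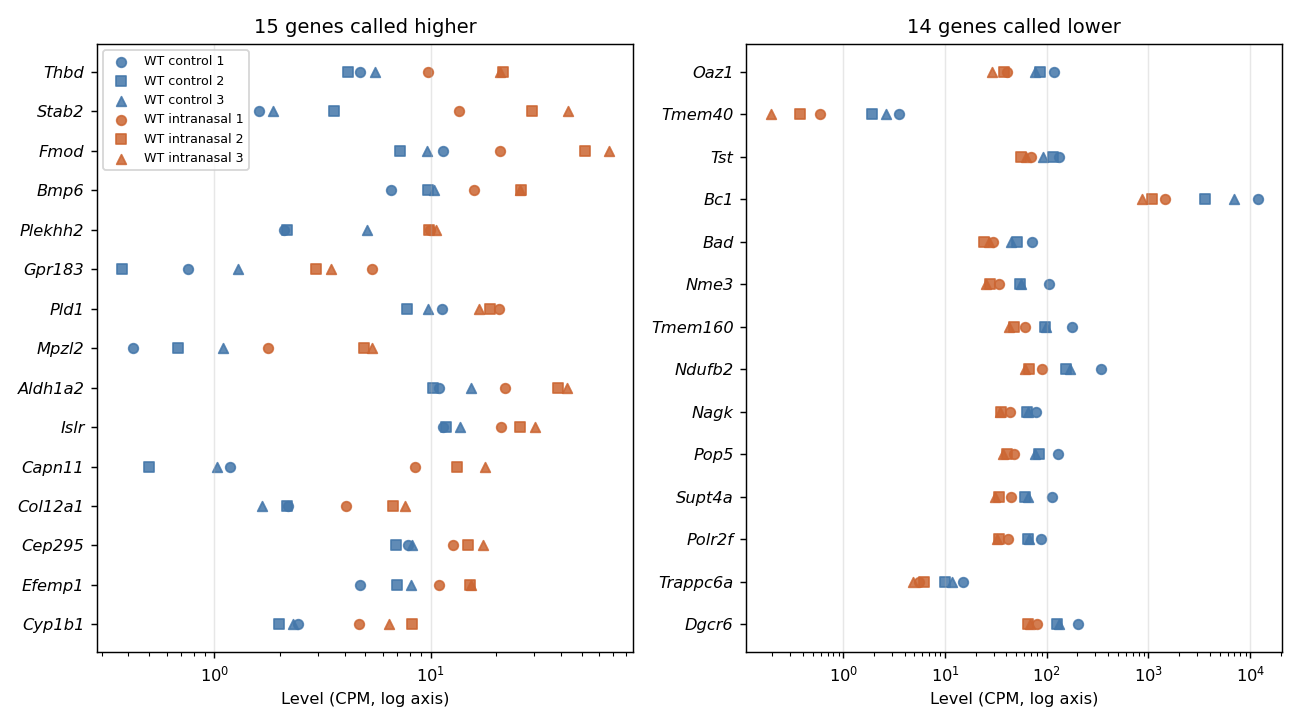
Level in CPM (log axis) of the 15 genes called higher (left) and 14 called lower (right) with the smallest p, 1 point per library, circles, squares and triangles being replicates 1, 2 and 3 of each group. The WT intranasal points lie to the right of all WT control points in each row of the left panel and to the left of them in each row of the right panel.

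Fold change followed transcript length, that of the longest annotated transcript of a gene, across genes. Among 15081 genes with an annotated transcript, log2 fold change and length had a Spearman rho of 0.57; the genes share the same 6 libraries and are not independent. Genes under 1000 bases had a median log2 fold change of -0.74 and genes of 8000 bases and over one of 0.55. The genes that rose had a median length of 4722 bases and those that fell one of 1356.5, against 3411 for all. Of the 104 genes with a length that fell, 81 were under 2000 bases, as were 3 of the 51 that rose and 3016 of all 15081.

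Replicates of one group differed in the same way. Relative to the mean of WT control, the median of genes under 1000 bases was at 0.38, -0.30 and -0.06 on the log2 scale in WT control 1, 2 and 3 and at -0.44, -0.78 and -0.90 in WT intranasal 1, 2 and 3. Genes of 8000 bases and over ran the other way, with -0.32, 0.20 and 0.13 in WT control and 0.27, 0.69 and 0.75 in WT intranasal. The difference of WT control 1 from the other libraries of its group had a rho of -0.43 with length, and that of WT intranasal 1 from its own group one of -0.44. After each library was corrected for length by a loess curve, 29 genes were higher and 40 lower, of which 24 and 39 were among the genes called without it. Of the 29 genes shown in the plot of levels by library, the fold changes of Nme3, Tmem160, Supt4a, Trappc6a, Bad, Polr2f and Dgcr6 came to -0.53, -0.59, -0.44, -0.50, -0.66, -0.78 and -0.67 after it, and the first 4 of these were no longer called. Among those that rose Cep295 came to 0.51, Col12a1 to 0.96, Plekhh2 to 1.32, Pld1 to 0.78 and Cyp1b1 to 1.29, none of them called after it. Bc1 has no length in the annotation used and was not corrected. Beyond this correction the part of length in the calls was not tested.

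**Figure D2:**
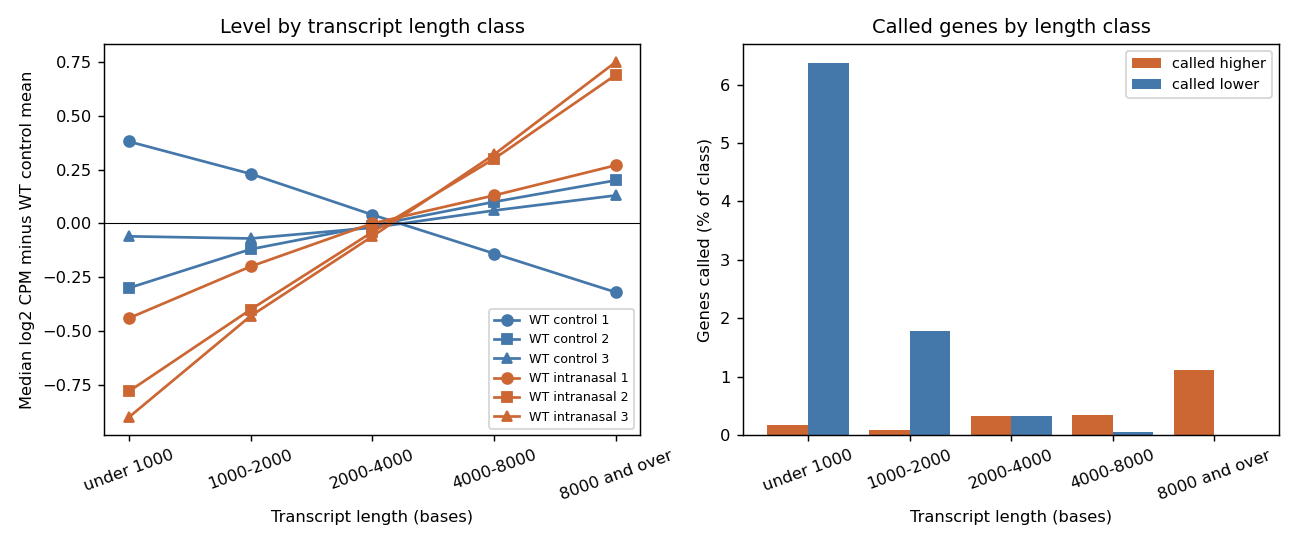
Left: median over genes of log2 CPM minus the WT control mean, by transcript length class, with 1 line per library. Right: share of each class called higher or lower. Short genes are below and long genes above the control mean in all 3 WT intranasal libraries, and WT control 1 has the opposite slope to the other 5 libraries; 6.38% of genes under 1000 bases were called lower.

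Thbd and Stab2, surface proteins of the vessel lining, had the smallest p of the genes that rose. Of 18 tested genes of endothelial coagulation, adhesion and scavenging, all 18 had a fold change above 0, 2 rose and the median was 0.75, against 0.02 for all genes tested. Thbd (gene ID 21824) encodes thrombomodulin, which binds thrombin on endothelium and turns it towards activation of protein C. Its level was 4.72, 4.15 and 5.52 CPM in WT control 1, 2 and 3 and 9.72, 21.6 and 21.0 CPM in the treated libraries 1, 2 and 3. The groups did not overlap, WT intranasal 1 being nearest to the controls, and the log2 fold change was 1.87 (SE 0.29), a fold of 3.65 (adjusted p = 0.0467, edgeR).

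Stab2 (gene ID 192188) encodes stabilin-2, a scavenger receptor for hyaluronan best known from sinusoidal endothelium of the liver. It was at 1.60, 3.59 and 1.86 CPM in the WT controls and at 13.5, 29.4 and 43.5 CPM in WT intranasal 1, 2 and 3. All 3 treated libraries stood well above the controls, with a log2 fold change of 3.59 (SE 0.57, adjusted p = 0.0467, edgeR), and the gene was called in 17 of 25 alternatives. Its relative Stab1 was at 7.75, 9.35 and 14.4 CPM in the WT controls and higher in each treated library, with a log2 fold change of 0.89 (SE 0.28) that did not pass (adjusted p = 0.0893, edgeR). Vcam1, the adhesion molecule for leukocytes, had a log2 fold change of 0.62 (SE 0.24) and Plat, tissue plasminogen activator, one of 0.47 (SE 0.26); neither passed. Adamts13, the protease that cuts von Willebrand factor, rose by 1.00 (SE 0.22); it was at 0.86 and no longer called after the length correction.

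Genes that define endothelium as a cell type had a lower median. Of 26 tested, 18 were above 0 with a median of 0.37; 0 rose and Egfl7, a secreted endothelial factor, fell, from 70.8, 40.2 and 38.9 CPM in WT control to 31.4, 22.5 and 17.3 CPM in WT intranasal. Its groups did not overlap, and it had a log2 fold change of -1.07 (SE 0.23), or -0.79 and no call after the length correction. Kdr, the receptor for vascular endothelial growth factor, was at 1.25 and Itm2a at 0.02, and neither passed. The defining markers Cldn5, Pecam1 and Cdh5 summed to 35.1 to 44.0 CPM in WT control and 44.2 to 47.1 CPM in WT intranasal, with none at 0 and none called. In bulk tissue a change in the number of cells of a type and a change of RNA per cell cannot be told apart.

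In mural cells, the pericytes and smooth muscle that wrap vessels, 12 of 14 tested genes were above 0 with a median of 0.56, and 1 rose. Anpep, an aminopeptidase of pericytes, went from 1.52, 1.73 and 2.18 CPM in the controls to 4.74, 6.17 and 6.37 CPM in WT intranasal without overlap, a log2 fold change of 1.66 (SE 0.35). Pde5a, the phosphodiesterase of cyclic GMP in smooth muscle, rose by 1.55 (SE 0.32); after the length correction it was at 1.06 and not called. The mural median was 0.27 without WT control 2. The markers Pdgfrb, Rgs5 and Acta2 summed to 74.4 to 107 CPM in WT control and 95.3 to 118 CPM in WT intranasal, with overlap between the groups.

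Genes of meningeal fibroblasts and their matrix had fold changes above 0 throughout. All 34 tested were above 0, as were 52.2% of all genes tested; 8 rose, 0 fell, and the median log2 fold change was 1.13. In 22 of the 34 every WT intranasal library lay above every control, against the 13.2% of all genes given above. Fmod (gene ID 14264), a proteoglycan that binds collagen fibrils, was at 11.5, 7.24 and 9.62 CPM in WT control 1, 2 and 3 and at 21.0, 52.1 and 67.0 CPM in WT intranasal 1, 2 and 3. WT intranasal 2 and 3 were far above WT intranasal 1, which was itself above all controls, and the log2 fold change was 2.31 (SE 0.39, adjusted p = 0.0467, edgeR).

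Aldh1a2, the enzyme that makes retinoic acid in the meninges, rose from 12.2 ± 2.78 CPM to 34.5 ± 11.0 CPM (mean ± SD, n = 3), a fold of 2.83 (edgeR adjusted p = 0.0467). In single libraries it was at 10.9, 10.3 and 15.4 CPM in the controls and 22.0, 38.7 and 42.8 CPM in WT intranasal, again without overlap and with WT intranasal 1 the lowest treated library. Igf2, a growth factor made by meninges and choroid plexus, was at 73.4, 64.7 and 114 CPM in the controls and 144, 204 and 218 CPM in the treated libraries, a rise of 1.17 (SE 0.24). Aebp1, a collagen-binding secreted protein, rose by 1.61 (SE 0.32), and Col1a2, a chain of type I collagen, by 1.23 (SE 0.28).

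The organic anion transporters Slc22a6 and Slc22a8, which stand at the barrier layer of the meninges, both rose. Slc22a6 was at 4.38, 4.08 and 5.84 CPM in the controls and 9.23, 18.5 and 20.8 CPM in WT intranasal, a log2 fold change of 1.76 (SE 0.36); Slc22a8 rose by 1.12 (SE 0.26). Lox, the enzyme that cross-links collagen, had 0 counts in all 3 WT control libraries and 0.346, 1.34 and 1.81 CPM in the treated libraries 1, 2 and 3. Set against a floor of 3 counts over the control group, it was at least 17.4-fold higher.

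Other matrix genes that passed lay outside the list. Among the 15 genes that rose with the smallest p were Col12a1, a fibril-associated collagen, Efemp1, a fibulin of elastic tissue, and Islr, a secreted protein of mesenchymal cells. Col12a1 was at 2.19, 2.17 and 1.67 CPM in WT control and 4.08, 6.68 and 7.60 CPM in WT intranasal, a log2 fold change of 1.61 (SE 0.32). Efemp1 rose by 1.07 (SE 0.21) and Islr by 1.07 (SE 0.21), the latter from 11.5, 11.8 and 13.7 CPM to 21.2, 25.9 and 30.4 CPM, without overlap. Mpzl2, an epithelial adhesion protein, was at 0.421, 0.681 and 1.09 CPM and 1.76, 4.91 and 5.36 CPM in the same order and rose by 2.43 (SE 0.46). Cyp1b1, a cytochrome that acts on retinoids and steroids, rose by 1.53 (SE 0.31), and Alx4, a homeobox factor of skull mesenchyme, by 2.15 (SE 0.43), a call lost with the length correction.

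The 3 fibroblast markers Col1a1, Dcn and Lum summed to 46.5, 44.8 and 43.4 CPM in WT control 1, 2 and 3 and to 55.0, 86.6 and 88.4 CPM in WT intranasal 1, 2 and 3, with none at 0. None of the 3 was called on its own. The meningeal median was 0.56 when WT intranasal 2 and 3 were left out, so that WT intranasal 1 alone was set against the controls, and 0.91 after the length correction. The correction kept 5 of the 8 calls, lost Col1a2, Slc22a8 and Lox, and added Mgp, a calcification inhibitor of matrix. The cerebellar markers described below had the same order of treated libraries, 80.1, 145 and 175 CPM. The part of either set of markers in the result for the list was not tested.

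**Figure D3:**
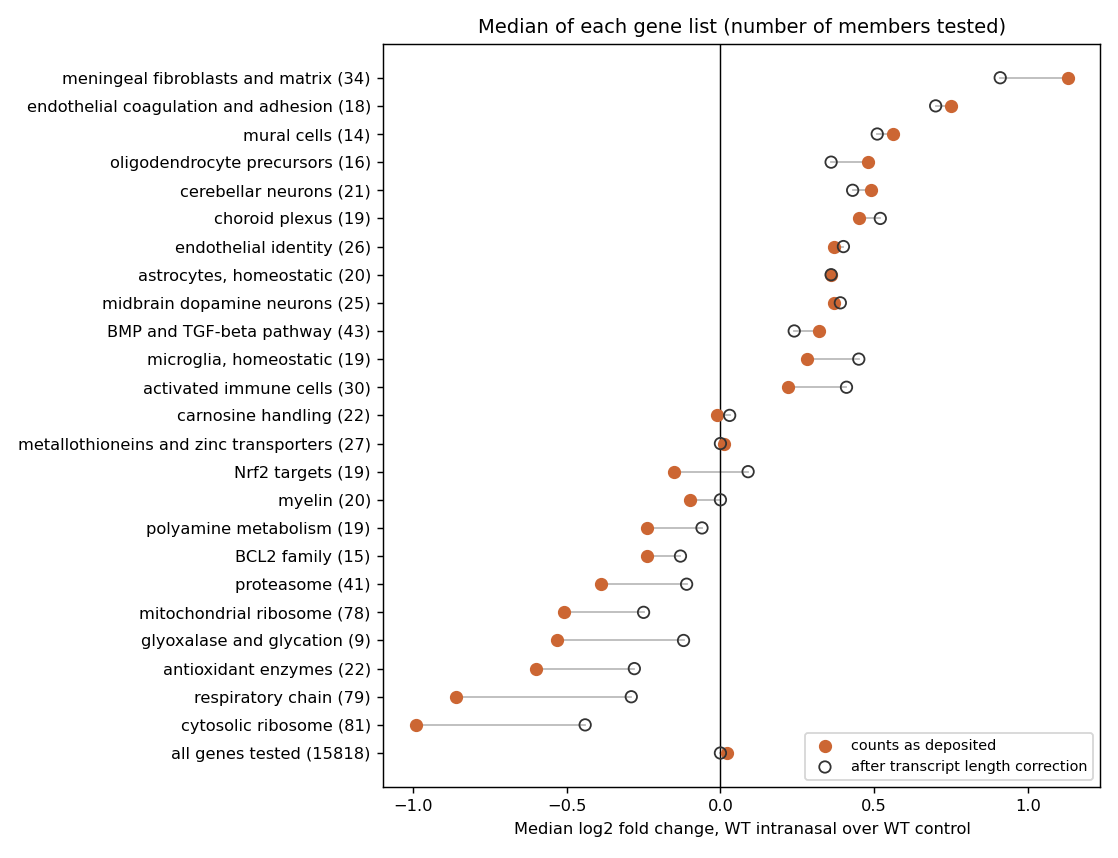
Median log2 fold change of 24 gene lists and of all genes tested, with the number of tested members in brackets; filled points are from the counts as deposited and open circles after the transcript length correction. Meningeal genes lie at 1.13 and 0.91, the respiratory chain at -0.86 and -0.29.

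Bone morphogenetic proteins (BMPs) and transforming growth factor beta signal through paired surface receptors to SMAD proteins. Of 43 tested genes of the pathway, 35 were above 0 with a median of 0.32. Among 13 ligands 2 rose, and 12 were above 0 with a median of 0.44. Bmp6 (gene ID 12161), made by endothelium and meninges and known as the ligand that sets hepcidin in the liver, was at 6.57, 9.72 and 10.4 CPM in WT control 1, 2 and 3 and at 15.9, 26.2 and 25.9 CPM in the treated libraries 1, 2 and 3. The groups did not overlap, and the log2 fold change was 1.35 (SE 0.23). Its exons overlap those of Txndc5 on the opposite strand, whose log2 fold change was 0.20 and did not pass.

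Bmp4 was at 1.77, 1.42 and 1.80 CPM in the controls and 4.29, 3.67 and 5.52 CPM in the treated libraries, a rise of 1.43 (SE 0.30) on the log2 scale. Bmp7, a further ligand of the meninges, had a log2 fold change of 1.04 (SE 0.25) and did not pass (adjusted p = 0.0537, edgeR). All 17 receptors and transducers were above 0 with a median of 0.41 and 0 called; Bmpr1a was at 0.66 (SE 0.22) and Bmpr2 at 0.93 (SE 0.34). Of 13 targets and inhibitors 6 were above 0, the median was -0.09 and 0 were called. The immediate target Id2 was at -0.09 (SE 0.20), the inhibitory Smad7 at 0.50 (SE 0.23) and the inhibitor Fst at -1.24 (SE 0.45). The pathway median was 0.16 without WT control 1 and 0.11 without WT intranasal 2 and 3.

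Few immune genes passed. Gpr183 (gene ID 321019), the oxysterol receptor that guides B cells and dendritic cells, was at 0.758, 0.371 and 1.28 CPM in WT control and 5.36, 2.96 and 3.47 CPM in WT intranasal. Unlike most genes that rose, its highest treated library was WT intranasal 1, and the log2 fold change was 2.28 (SE 0.43). H2-Eb1, a chain of the class II molecule that presents antigen, was at 0.674, 0.681 and 1.60 CPM and 2.32, 4.30 and 6.10 CPM in the same order and rose by 2.08 (SE 0.48). The invariant chain Cd74, its partner, had a log2 fold change of 1.21 (SE 0.31) and did not pass (adjusted p = 0.0592, edgeR); it was at 1.66 with adjusted p = 0.0436 after the length correction.

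Of 30 tested genes of activated immune cells 20 were above 0, with a median of 0.22 and 1 called; of 22 interferon response genes 13 were above 0, with a median of 0.19 and 0 called. Homeostatic microglial genes had 13 of 19 above 0, a median of 0.28 and 0 called. The microglial markers Cx3cr1, P2ry12 and Csf1r summed to 164 to 325 CPM in WT control and 318 to 428 CPM in WT intranasal, with overlap. Serping1, the inhibitor of complement C1, rose by 1.28 (SE 0.30), and Fgl2, a prothrombinase of activated macrophages, by 1.92 (SE 0.44), a call that the length correction removed. Haemoglobin transcripts were near 0: of 10 haemoglobin genes in the table none reached 10 counts in any library, the highest count being 9. Alas2, also on the list of blood cell genes, was at 14.7, 5.32 and 12.8 CPM in WT control 1, 2 and 3. In WT intranasal 1, 2 and 3 it was at 13.1, 29.7 and 19.1 CPM, and it did not pass. The haemoglobin counts therefore do not show that blood was absent.

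The remaining genes that rose with the smallest p had varied roles. Capn11 (gene ID 268958), a calpain protease otherwise known from testis, was at 1.18, 0.495 and 1.03 CPM in WT control and 8.47, 13.3 and 17.9 CPM in WT intranasal. The groups stood far apart, and the log2 fold change was 3.89 (SE 0.77). Plekhh2, an actin-binding protein of kidney podocytes, rose by 1.69 (SE 0.30), Pld1, a phospholipase D, by 0.98 (SE 0.18), and Cep295, a centriole protein, by 0.97 (SE 0.19). Pld1 was at 11.3, 7.80 and 9.69 CPM and 20.6, 18.9 and 16.8 CPM, and here WT intranasal 1 was the highest treated library. Slc6a12, a betaine and GABA transporter, was at 0.758, 0.495 and 1.16 CPM and 3.18, 6.15 and 6.52 CPM, a log2 fold change of 2.71 (SE 0.55). Herc2, a very large ubiquitin ligase, rose by 1.16 (SE 0.26) and Ahnak, a giant scaffold protein, by 1.34 (SE 0.30). Both have very long transcripts, and after the length correction they came to 0.45 and 0.60 and were no longer called.

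Nuclear-encoded genes of the respiratory chain had fold changes below 0 throughout. All 79 tested were below 0, against 7558 of all 15818, and the median log2 fold change was -0.86. In 70 every WT intranasal library lay below every control, as in 13.4% of all genes tested. Of the 79, 11 fell, against 0.683% of all genes and 6.38% of genes under 1000 bases. Complex I, which takes electrons from NADH, had 5 of 36 called, namely Ndufa2, Ndufa11, Ndufb2, Ndufs7 and Ndufv3, and a median of -0.88. Ndufb2 (gene ID 68198), an accessory subunit of it, was at 338, 153 and 171 CPM in WT control 1, 2 and 3 and 89.7, 67.4 and 60.6 CPM in the treated libraries 1, 2 and 3. WT control 1 was far above the other controls, all of which were above the treated libraries, and the log2 fold change was -1.60 (SE 0.31). Exons of Ndufb2 overlap Braf on the opposite strand, which was at 0.64 and did not pass.

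Complexes II and III had 2 of 14 called, Uqcrq at -1.41 (SE 0.30) and Uqcr11 at -1.44 (SE 0.32). Complex IV, cytochrome oxidase, had 3 of 12 called, namely Cox4i1, Cox5b and Cox7a2, and a median of -1.01. Cox4i1 was at 5395, 2506 and 3390 CPM in the controls and 1913, 1159 and 1126 CPM in WT intranasal, a log2 fold change of -1.43 (SE 0.32). ATP synthase had 1 of 17 called, Atp5e, at 1114, 491 and 647 CPM and 325, 204 and 181 CPM in the same order and -1.66 (SE 0.34). Some large subunits had smaller fold changes than the genes called and did not pass. Sdha of complex II was at -0.09 (SE 0.13), Atp5a1 of ATP synthase at -0.15 (SE 0.13) and Atp5b at -0.37 (SE 0.15). In each of these every WT intranasal library lay below every control.

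Transcripts of the respiratory chain list had a median length of 1141 bases. Their median log2 fold change was -0.29 after the length correction, with 74 of 79 genes below 0. The 6 called were Ndufa2, Ndufb2, Ndufv3, Uqcrq, Uqcr11 and Atp5e. Ndufb2 has 4371 bases by its longest annotated transcript, and the correction moved it from -1.60 to -1.75. Whether the annotated lengths match the transcripts present in these libraries was not tested. Without WT control 1, where the list averaged 8.51 on the log2 CPM scale against 7.82 and 8.03 in the other controls, the median was -0.65. WT intranasal 1 was at 7.54 and WT intranasal 2 and 3 at 7.18 and 7.10, all below the controls. WT control 1, the highest control for the genes of the respiratory chain and of both ribosomes, also held 853 CPM of pituitary markers against at most 60.8 CPM in the other 5 libraries, whose part in these results was not tested.

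Ribosomal protein genes followed the same direction. All 81 tested genes of the cytosolic ribosome were below 0, with a median of -0.99 and 2 called. Their median transcript length was 1094 bases. Called lower were 6.38% of all genes under 1000 bases and 1.78% of those of 1000 to 2000. Rps14 of the small subunit was at 5033, 2221 and 3303 CPM in WT control and 1369, 912 and 715 CPM in WT intranasal, without overlap, a log2 fold change of -1.82 (SE 0.41). Rpl41, the smallest protein of the large subunit, was at -1.72 (SE 0.40). Many ribosomal protein genes have near-identical pseudogenes, which the counting may have split. The median was -0.44 after the length correction, which left Rps14 called.

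For the mitochondrial ribosome all 78 tested genes were below 0, 7 fell and the median was -0.51. Median transcript length was 1866 bases here and 1907 in the proteasome list. Of all genes of 1000 to 2000 bases 1.78% were called lower. The 7 were Mrpl20, Mrpl28, Mrpl52, Mrps11, Mrps16, Mrps24 and Mrps34, between -1.25 and -0.78, and Mrpl20 was at 143, 81.2 and 81.5 CPM in the controls and 52.6, 42.5 and 36.5 CPM in WT intranasal. Of 41 proteasome genes 37 were below 0, with a median of -0.39. The 1 called, Psmb10 of the immunoproteasome, was at 138, 81.1 and 90.4 CPM and 60.8, 41.1 and 48.1 CPM, a log2 fold change of -1.04 (SE 0.24). After the length correction the medians were -0.25 for the mitochondrial ribosome and -0.11 for the proteasome, with 1, Mrps16, and 0 called.

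Further genes of mitochondrial proteins fell. Glrx5, a glutaredoxin that serves the assembly of iron-sulphur clusters, fell with -1.20 (SE 0.25), and Chchd2, a mitochondrial protein whose mutation causes inherited Parkinson disease, with -1.14 (SE 0.23). Tst, or rhodanese, a mitochondrial sulphur transferase that detoxifies cyanide, was at 132, 114 and 92.9 CPM and 70.4, 56.0 and 62.0 CPM in the same order and fell with -0.85 (SE 0.15).

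Oaz1 (gene ID 18245) had the smallest p of the genes that fell. It encodes antizyme, whose synthesis rises with polyamines and which then sends ornithine decarboxylase to the proteasome. Oaz1 was at 117, 85.6 and 76.3 CPM in WT control 1, 2 and 3 and 40.5, 37.6 and 28.9 CPM in the treated libraries 1, 2 and 3. The groups were well apart, and the log2 fold change was -1.38 (SE 0.23, adjusted p = 0.0467, edgeR); a processed copy of the gene exists, and the counting may have split reads between them. Of 19 tested genes of polyamine metabolism 2 fell and 0 rose, with a median of -0.24 that was -0.06 after the length correction. The other was Dohh, which completes hypusine on the translation factor Eif5a, at -0.94 (SE 0.20) and, after the correction, at -0.54 and no longer called; Eif5a itself was at -0.70 (SE 0.19) and the relative Oaz2 at -0.32 (SE 0.14), and neither passed.

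Bad, which promotes cell death by binding Bcl2 proteins, was at 71.2, 51.1 and 44.8 CPM in the controls and 29.8, 24.2 and 27.1 CPM in WT intranasal. All treated libraries were below all controls, with a log2 fold change of -1.04 (SE 0.20); Gpr137 overlaps it on the opposite strand and was at -0.44 without passing. It was the 1 gene called of 15 tested in the BCL2 family, whose median was -0.24 and, after the length correction, -0.13. Bax, the pore former, was at -0.84 (SE 0.23) and Bcl2l1, a protector, at -0.25 (SE 0.15), and neither passed.

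Some genes of transcription and RNA processing were among the 15 that fell with the smallest p. They included Polr2f, a subunit shared by the nuclear RNA polymerases, Supt4a, an elongation factor, and Pop5, a subunit of RNase P. Polr2f was at 87.6, 65.2 and 66.6 CPM in WT control and 41.7, 33.8 and 32.3 CPM in WT intranasal, a log2 fold change of -1.02 (SE 0.20); exons of 1700088E04Rik overlap it on the opposite strand, at 1.26 without passing. Supt4a fell with -1.13 (SE 0.22) and Pop5 with -1.21 (SE 0.24); Supt4a has a close copy, Supt4b. Nme3, a nucleoside diphosphate kinase, was at -1.30 (SE 0.25), Nagk, which phosphorylates N-acetylglucosamine, at -0.88 (SE 0.17), and Trappc6a, of a vesicle tethering complex, at -1.13 (SE 0.22). Tmem160 and Dgcr6 fell with -1.30 (SE 0.25) and -1.10 (SE 0.22). Tmem40, a membrane protein, was at 3.54, 1.92 and 2.63 CPM in the controls and 0.588, 0.377 and 0.193 CPM in WT intranasal, a log2 fold change of -2.78 (SE 0.47).

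Promoters were searched for the letters CCGGAAG, a core motif of ETS transcription factors, and for SP1, TATA box and CCAAT box letters. RefSeq promoter windows of assembly GRCm38.p6, 250 bases before to 50 after the first listed start of each gene, were found for 85 of the 108 genes that fell and 40 of the 51 that rose. On either strand the ETS motif was in 29 of the 85 (34.1%) and in 4 of the 40 (10%). It was in 15.8% of 12452 tested genes with a window and 9.12% of all 27025 windows. It was in 38.3% of 60 cytosolic ribosome genes, 23.9% of 67 respiratory chain genes and 0 of 24 meningeal genes. The letters GGGCGG, the core of SP1 sites, were in 52.9% of the genes that fell, 60% of those that rose and 61.5% of tested genes. In the same order TATAAA was in 4.71%, 2.5% and 7.45%, and CCAAT in 42.4%, 35% and 38.2%. Shares among genes of like transcript length were not tested. These counts describe the sequences and say nothing about binding.

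Windows of 180 bases, from 150 before to 30 after the start, are shown 5′ to 3′ on the gene's strand for 5 genes that fell and hold the motif, in capitals on whichever strand it lies, and for 2 that rose and do not. The motif marked is the ETS motif, and they are shown because it was in a larger share of the promoters of genes that fell. The choice does not stand for all genes. Oaz1, Tmem40, Bad, Nme3, Tmem160, Ndufb2, Pop5, Trappc6a and Dgcr6 fell and had no match in such a window. Cep295 rose and had 1. Atp5e and Rpl41 were not among the genes with the smallest p. Nagk lies at chr6:83794850-83795029 (plus strand), Supt4a at chr11:87737401-87737580 (plus), Polr2f at chr15:79141175-79141354 (plus), Atp5e at chr2:174464072-174464251 (minus), Rpl41 at chr10:128549139-128549318 (minus), Stab2 at chr10:87007913-87008092 (minus) and Fmod at chr1:134037104-134037283 (plus).
Nagk: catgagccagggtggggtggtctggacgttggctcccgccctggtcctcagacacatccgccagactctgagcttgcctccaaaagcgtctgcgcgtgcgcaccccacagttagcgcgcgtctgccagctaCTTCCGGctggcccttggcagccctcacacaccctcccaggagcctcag
Supt4a: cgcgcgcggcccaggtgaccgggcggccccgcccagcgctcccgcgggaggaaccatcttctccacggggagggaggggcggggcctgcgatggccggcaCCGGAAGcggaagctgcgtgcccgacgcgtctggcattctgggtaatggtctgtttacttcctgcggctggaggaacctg
Polr2f: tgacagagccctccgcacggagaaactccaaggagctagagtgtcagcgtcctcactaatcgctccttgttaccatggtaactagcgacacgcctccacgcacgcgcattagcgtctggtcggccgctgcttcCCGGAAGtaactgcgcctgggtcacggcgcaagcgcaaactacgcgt
Atp5e: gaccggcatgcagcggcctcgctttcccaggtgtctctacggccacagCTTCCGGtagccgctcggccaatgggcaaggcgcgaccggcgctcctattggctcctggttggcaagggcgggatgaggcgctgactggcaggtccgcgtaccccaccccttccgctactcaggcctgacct
Rpl41: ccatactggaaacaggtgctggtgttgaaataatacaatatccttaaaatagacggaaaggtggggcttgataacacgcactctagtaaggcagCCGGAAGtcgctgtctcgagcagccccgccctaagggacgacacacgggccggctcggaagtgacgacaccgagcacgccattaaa
Stab2: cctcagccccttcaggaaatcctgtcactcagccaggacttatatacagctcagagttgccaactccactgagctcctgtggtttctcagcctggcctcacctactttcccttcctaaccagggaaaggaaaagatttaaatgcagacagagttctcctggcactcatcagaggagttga
Fmod: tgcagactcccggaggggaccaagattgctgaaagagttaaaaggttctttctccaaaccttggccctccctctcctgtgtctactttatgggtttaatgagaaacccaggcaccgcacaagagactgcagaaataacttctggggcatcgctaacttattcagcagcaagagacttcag
The match begins 19 bases before the start in Nagk, 50 in Supt4a, 17 in Polr2f, 102 in Atp5e and 56 in Rpl41.

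Bc1 (gene ID 100568459), a short noncoding RNA that RNA polymerase III makes in neurons and that travels into dendrites, was among the 15 genes that fell with the smallest p. It was at 11954, 3595 and 6977 CPM in WT control 1, 2 and 3 and 1465, 1090 and 867 CPM in the treated libraries 1, 2 and 3. The controls differed among themselves more than the treated libraries did, yet the lowest control was above every treated library, and the log2 fold change was -2.72 (SE 0.51). Its start is shown with the transcribed bases in capitals, from 70 before to 50 after the annotated start at chr7:144914400-144914519 (plus strand), since transcription by polymerase III is set by elements inside the transcript.
Bc1: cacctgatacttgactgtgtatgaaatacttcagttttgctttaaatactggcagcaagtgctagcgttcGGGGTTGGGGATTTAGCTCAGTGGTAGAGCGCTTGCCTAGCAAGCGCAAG
Of 12 tested noncoding RNAs of nuclei and neurons Bc1 was the 1 called; the imprinted Kcnq1ot1 was at 1.03 (SE 0.29) and Meg3 at 0.17 (SE 0.27). Small RNAs were thinly measured by this assay, with 17 microRNA and 15 small nucleolar RNA genes tested and 0 called in both.

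Genes that handle carnosine itself did not pass. Of 22 tested 11 were above 0, the median was -0.01 and 0 were called. Cndp2, a cytosolic enzyme that cleaves carnosine, was at 59.3, 70.3 and 69.3 CPM in WT control and 66.7, 54.0 and 53.8 CPM in WT intranasal, with overlap and a log2 fold change of -0.19 (SE 0.14). Slc15a2, a transporter that takes up carnosine in brain, was at 0.46 (SE 0.15, adjusted p = 0.0947, edgeR), with all 3 treated libraries above the controls. The taurine and beta-alanine transporter Slc6a6 was at 0.44 (SE 0.17) and the histamine receptor Hrh3 at -0.34 (SE 0.22).

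Systems that carnosine is proposed to touch gave few calls. Of 22 antioxidant enzymes 18 were below 0, with a median of -0.60, or -0.28 after the length correction, and Glrx5 the 1 called; Gpx4, which reduces lipid peroxides, was at -1.18 (SE 0.30) and Prdx5 at -0.77 (SE 0.18). Of 19 Nrf2 targets 7 were above 0, with a median of -0.15 that became 0.09 after the length correction, and 0 were called. Among 9 genes of glyoxalase and glycation the median was -0.53, or -0.12 after the correction, and 0 were called; Glo1, which removes methylglyoxal, was at 0.02 (SE 0.21) and Park7 at -0.74 (SE 0.17). Metallothioneins and metal transporters had a median of 0.01 over 27 tested, and the copper chaperone Atox1, a short gene, fell, with -1.17 (SE 0.26), but came to -0.32 after the length correction and was no longer called (adjusted p = 0.197, edgeR). The metallothionein Mt1, a short gene, was at -0.85 (SE 0.23) and did not pass. Of 18 heat shock chaperones and 21 genes of the unfolded protein response 0 were called, with medians of 0.04 and 0.05.

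Neural and glial lists were also mostly uncalled. Oligodendrocyte precursors had 14 of 16 above 0, a median of 0.48 and 1 called, Bmp4, described above as a ligand. Their markers Pdgfra, Cspg4 and Gpr17 summed to 45.5 to 95.2 CPM in WT control and 127.5 to 153 CPM in WT intranasal, without overlap. Homeostatic astrocyte genes had 16 of 20 above 0 with a median of 0.36 and 0 called, as in the glutamate transporter Slc1a2 at 1.32 (SE 0.47). Myelin genes had 5 of 20 above 0 and a median of -0.10; their markers summed to 14214 to 28136 CPM in WT control and 13227 to 25693 CPM in WT intranasal. Of 25 dopamine neuron genes 20 were above 0, the median was 0.37 and 0 were called, and the median was -0.59 without WT intranasal 2 and 3.

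Transcripts of regions next to the midbrain, and of other brain regions, differed between libraries of one group. Cortical and hippocampal markers, 4 genes, summed to 996.5 to 1795 CPM in WT control and 1042 to 1051 CPM in WT intranasal. Striatal markers summed to 102 to 291 CPM and 112 to 263 CPM in the same order. Thalamic markers summed to 113 to 315 CPM and 172.5 to 319 CPM. None of these was called. Cerebellar markers, 6 genes, summed to 47.7, 67.8 and 88.1 CPM in WT control 1, 2 and 3 and to 80.1, 145 and 175 CPM in WT intranasal 1, 2 and 3. Gabra6, the receptor subunit of cerebellar granule cells, was at 0.169, 0 and 0 CPM and 0, 14.4 and 18.6 CPM in the same order, so WT intranasal 2 and 3 held nearly all of it. Pituitary markers ran to 853 CPM in WT control 1, against 45.2 and 60.5 CPM in WT control 2 and 3 and 60.8, 9.77 and 4.98 CPM in WT intranasal 1, 2 and 3. Serotonin neuron markers were at 60.4 CPM in WT control 1 and at 35.0 and 45.9 CPM in WT intranasal 2 and 3, and at 1.35 to 1.92 CPM in the other 3 libraries.

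Choroid plexus markers were at 1606 CPM in WT control 3 and 1932 CPM in WT intranasal 1, against 55.9 to 495 CPM in the other 4. Their list of 19 tested genes had a median of 0.45, which was -0.07 without WT intranasal 1 and 1.47 without WT control 3, and 0 were called. Omp, the marker of olfactory sensory neurons, was called lower, at 0.758, 39.4 and 2.50 CPM in WT control and 0.346, 0.295 and 0.733 CPM in WT intranasal. WT control 2 alone held most of it, together with Cyp2a5, a nasal cytochrome, at 0, 16.0 and 0.770 CPM in the controls and 0 in all 3 treated libraries. Without WT control 2, Omp had a log2 fold change of -1.85 (SE 0.85) and was not called (adjusted p = 0.182, edgeR), and the median of the 9 tested olfactory and nasal genes came from -1.18 to -0.10. Both olfactory markers together reached at most 0.733 CPM in the treated libraries. Gng13, a G protein subunit of olfactory and other neurons, also fell, with -1.78 (SE 0.38), and was highest in WT control 1, at 139, 52.7 and 77.2 CPM in the controls and 37.9, 18.9 and 21.3 CPM in WT intranasal. The part of these regional differences in the called genes was not tested.

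**Figure D4:**
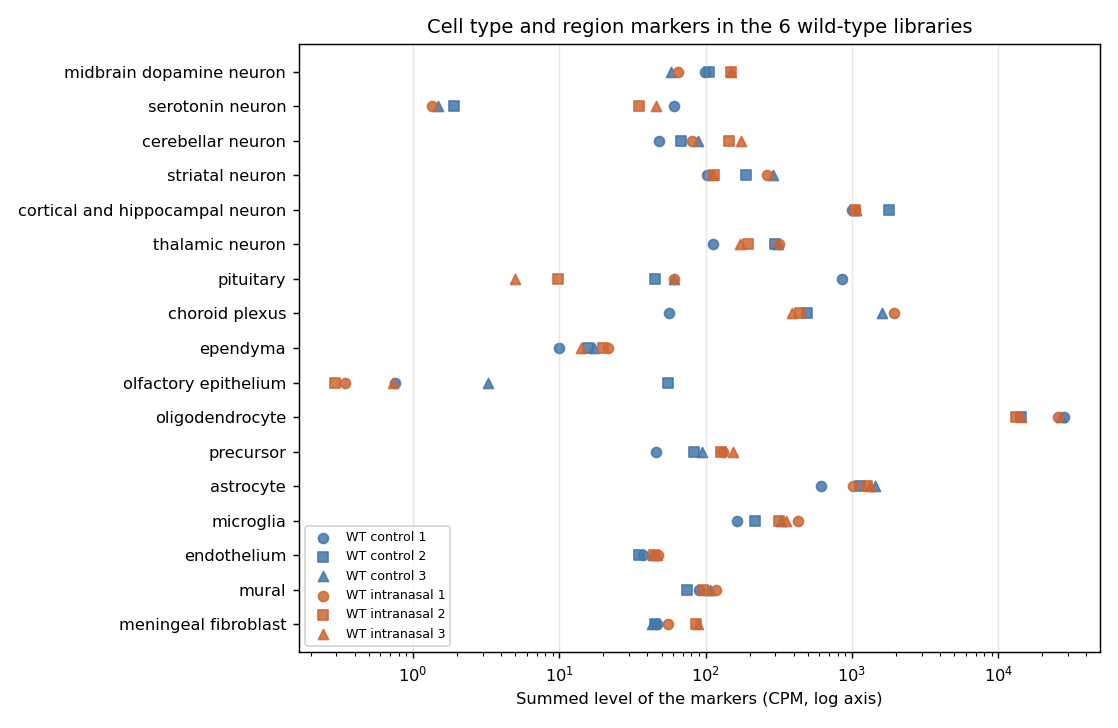
Summed level in CPM (log axis) of the markers of each cell type or region, 1 point per wild-type library. Cerebellar and fibroblast markers are highest in WT intranasal 2 and 3, pituitary markers in WT control 1, choroid plexus markers in WT control 3 and WT intranasal 1, and olfactory markers in WT control 2.

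The same treatment in TG mice gave 1 called gene (0.00632%), Lrrc17, with a log2 fold change of 4.09 (SE 0.58, adjusted p = 0.0385, edgeR). Over the 51 genes that rose in WT the median log2 fold change of TG intranasal over TG control was -0.02, with 24 above 0, and over the 108 that fell it was 0.35, with 4 below 0. The difference itself was tested as the interaction, the log2 fold change in TG minus that in WT, which uses the same WT libraries. It called 367 of all genes (2.32%), of which the WT fold change was the higher in 142 (0.898%) and the TG one in 225 (1.42%). Of the genes called in WT it called 17 of the 51 that rose and 81 of the 108 that fell.

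Stab2 had a log2 fold change of 0.08 (SE 0.53) in TG, an interaction of -3.51 (SE 0.76, adjusted p = 0.0487, edgeR). Capn11 was at -0.73 (SE 0.73) in TG, and Ndufb2 at 0.49 (SE 0.31), with interactions of -4.62 (SE 1.06) and 2.09 (SE 0.44). Thbd, at 0.35 (SE 0.28) in TG, had an interaction of -1.52 (SE 0.40) that did not pass (adjusted p = 0.0504, edgeR), nor did that of Fmod, at 0.41 (SE 0.37) in TG. The meningeal list had a median of 0.29 in TG with 0 of 34 called in the interaction, and the respiratory chain one of 0.40 with 25 of 79 called. Across genes, fold change in TG had a Spearman rho of -0.46 with transcript length, against 0.57 in WT. Genes under 1000 bases had a TG median of 0.41 and genes of 8000 bases and over one of -0.37. Beyond the length correction, the part of length in the TG values and the interaction was not tested.

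A division of the series runs through this comparison. The most abundant row without a gene name held 2.39% to 6.22% of counts in the 6 WT libraries and 2.31% and 3.07% in TG control 2 and 1. Its share was 0.122% to 0.320% in the remaining 7 libraries, which include TG control 3 and all 3 TG intranasal libraries. The 6 WT libraries lie on one side of it, whereas TG intranasal and TG control lie largely on opposite sides, so the interaction cannot be told apart from it. With the length correction the interaction called 1 gene, Lrrc17.

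**Figure D5:**
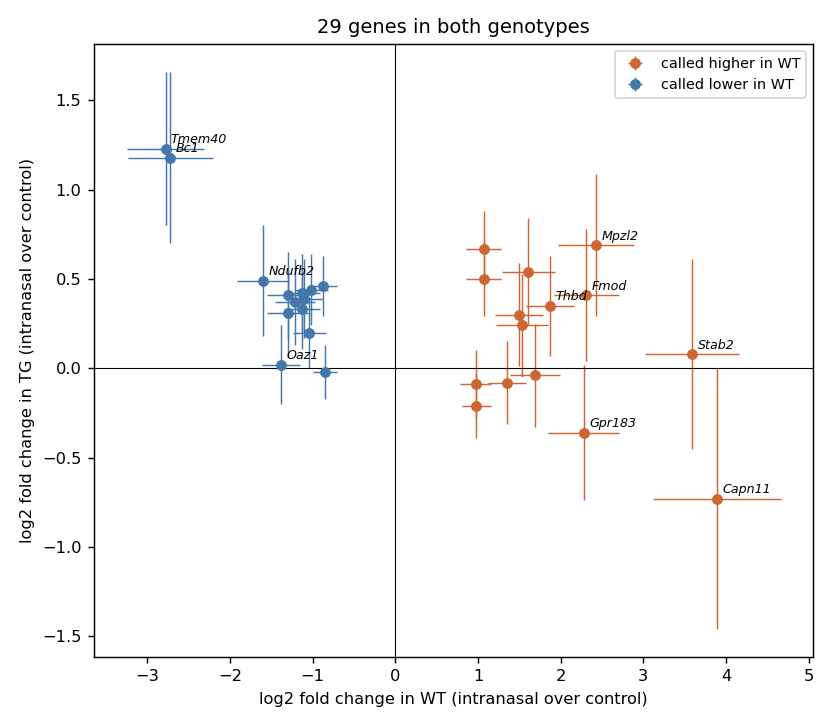
Log2 fold change of intranasal over control in WT (x axis) and in TG (y axis) for the 29 genes in the plot of levels by library, with bars of 1 SE. The genes called lower in WT lie at -0.02 to 1.23 in TG, and those called higher at -0.73 to 0.69.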

How the data were processed

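Midbrain total RNA was extracted with a mirVana kit and sequenced after standard Illumina library preparation, per the labels' protocols. The authors deposited raw counts per gene, whole numbers with no normalization, in a table of 24454 gene IDs, 24374 of them named through a RefSeq gene table (assembly GRCm38.p6). How reads were aligned and counted, on which build and with which strand setting, is not given in the sources used here. The 80 unnamed rows, with 2.41% to 6.24% of counts in the WT libraries, were not removed. Those that passed the filter on counts entered library sizes, scaling and tests.

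Tests on the counts used edgeR 4.0.16 under R 4.3.3 (filterByExpr, TMM, quasi-likelihood F-test, Benjamini-Hochberg over 15818 genes, called at an adjusted p under 0.05). All 15 libraries entered 1 fit with 5 group means and together gave the estimate of the spread, which the test makes gene by gene. The common biological coefficient of variation over all genes was 0.244. Unless another tool is named, p-values are from this test. Transcript lengths, those of the longest transcript of each gene, and exon overlaps came from GENCODE M21. The procedure was tested on simulated data. Those data held no trend with transcript length and no regional differences between libraries, so that test does not bear on either. Alternatives used DESeq2 1.42.0, voom of limma 3.58.1, RLE or upper-quartile scaling, no or a stricter filter, the 6 compared libraries alone, a replicate block, a loess length correction of span 0.5, and leaving out libraries.

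Named genes were drawn from the 15 genes higher and the 15 lower with the smallest p, without predicted genes, and from 49 gene lists. From each list the rule took the 3 members with the smallest p, the 2 most abundant and every called one. The text gives some of these, for the lists it describes. Adamts13, Pde5a, Alx4, Fgl2, Slc6a12, Herc2 and Ahnak, called genes outside the lists, were chosen after their values were seen. A gene that the rule names is not reported here. The comparison, lists and promoter motifs were chosen with earlier results of these data known.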

Additional observations from a re-analysis of the deposited data

Results flagged for a closer look

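For 19 of the 29 reported genes with the smallest p in WT, the log2 fold change of intranasal carnosine differed between TG and WT by the interaction test in edgeR (adjusted p = 0.0487 for each). TG minus WT was -3.51 for Stab2, -1.42 for Bmp6, -1.74 for Plekhh2, -2.64 for Gpr183, -1.19 for Pld1 and -4.62 for Capn11, all of which rose in WT. Of the genes that fell in WT it was 1.40 for Oaz1, 4.01 for Tmem40, 3.90 for Bc1, 1.24 for Bad, 1.71 for Nme3, 1.60 for Tmem160, 2.09 for Ndufb2, 1.34 for Nagk, 1.57 for Pop5, 1.46 for Supt4a, 1.46 for Polr2f, 1.55 for Trappc6a and 1.48 for Dgcr6. These genes were chosen for the smallest p in WT, and the same WT libraries enter the interaction. Across genes, fold change had a Spearman rho with transcript length of 0.57 in WT and -0.46 in TG. TG intranasal and TG control lie largely on opposite sides of the division by the most abundant unnamed row, so genotype and that division cannot be told apart here.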

How the results depend on the processing

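All 159 genes kept their direction in each alternative in which they were tested, but their number did not hold. Given as higher and lower, it was 0 and 0 with upper-quartile scaling, 522 and 920 by DESeq2, 1084 and 1430 by voom with quality weights, 166 and 368 without a filter, 2 and 0 in a fit of the 6 compared libraries, and 29 and 40 after the length correction, where the interaction called 1. Interaction calls numbered 706 with RLE scaling, 2406 by DESeq2, 1083 by voom, 1276 without a filter, 1253 with the stricter filter and 0 in a fit of its 4 groups. RLE scaling and the stricter filter stayed within 1.5 times of the 51 and 108. The cause of these moves was not tested; the fit of 6 libraries has fewer samples to estimate the spread.

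Leaving out 1 library at a time gave 0 to 545 genes higher, 0 to 748 lower and 0 to 2389 in the interaction. The WT comparison had 0 calls without WT control 1, WT intranasal 2, WT intranasal 3, TG control 3, TG intranasal 1 or TG drinking water 3, 1 without TG intranasal 2 and 2 without TG drinking water 2. It had 23 and 176 without WT control 2, 108 and 238 without WT control 3, 422 and 538 without WT intranasal 1, 105 and 244 without TG control 1 and 545 and 748 without TG control 2. TG libraries act on it through the shared spread, the filter on low counts and the scaling: 15994 to 16223 genes were tested with 1 of them left out. Where edgeR called 0 genes in the WT comparison, 2097 to 3818 had an unadjusted p under 0.05 with 1 library left out or upper-quartile scaling, and where it called 0 in the interaction 3077 to 4532 did. The 1 or 2 genes were Stab2 without TG intranasal 2 and Stab2 and Capn11 without TG drinking water 2. Leaving out TG drinking water libraries, and leaving out WT intranasal 2 and 3 together, were chosen after seeing the data. The latter left 1 library in its group, so no count of calls is given for it.

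With the replicate number as a block the counts were 706 and 881, and 2598 in the interaction. Same-numbered WT libraries did not deviate together (correlations -0.0117, 0.0373 and -0.0872). For TG control and TG intranasal the correlations were 0.00425, 0.224 and 0.139, against -0.223 to 0.106 for unlike numbers. The labels give the numbers no stated meaning, so they are not taken to pair the libraries.

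For the 29 genes shown in the plot of levels by library, 393 of 722 values under alternatives stayed on their side of the threshold, 329 lost the call and 0 reversed. List medians moved by more than the replicate spread in 53 of 1225 values. Depth of at most 17759834 counts in WT control limits genes near 1 CPM to under 20 counts.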
